A study of Rattus norvegicus with 24 samples.

Results

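Antioxidant enzymes remove the superoxide and peroxide that cells make during respiration and through oxidase enzymes. The 6 genes taken here were Gsr, Sod1, Sod2, Cat, Gpx1 and Hmox1. Their probes were chosen by symbol alone: each probe of the array that carried 1 of these symbols and no other was kept, and each was read apart. Of the 10399 probes of the array, 8 met this rule, for 4 of the 6 genes. They were 2 for glutathione reductase (Gsr), 2 for the copper-zinc superoxide dismutase (Sod1), 3 for the mitochondrial manganese superoxide dismutase (Sod2) and 1 for haem oxygenase 1 (Hmox1). Catalase (Cat) and glutathione peroxidase 1 (Gpx1) were not analysed here.

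RNA came from the mesenteric arteries of 12 female Sprague Dawley rats, which were without ovaries from 3 weeks of age in all 3 groups, controls included. After 2 weeks of recovery, 4 rats were injected into the peritoneum for 4 days with sesame oil (vehicle), 4 with estradiol benzoate at 0.15 mg/kg/day and 4 with testosterone at 1 mg/kg/day. Estradiol benzoate is an ester that releases the estrogen estradiol, and testosterone is an androgen that tissues can also turn into estradiol. The rats were 5.5 weeks old, and no group kept its ovaries, so the levels of intact females were not measured. The cRNA of each rat was put on a pair of one-colour CodeLink arrays, called AA and AB, and the mean of their log2 intensities gave 1 value per animal. Each animal is called by its group and its label number.

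Superoxide dismutases turn superoxide into hydrogen peroxide. Sod1 does so mainly in the cytosol and Sod2 in the mitochondrial matrix, and in the artery wall this step spares nitric oxide, which superoxide would consume. Catalase and glutathione peroxidases then break the peroxide down, the latter with glutathione, and Gsr uses NADPH to return oxidised glutathione to its reduced form. Hmox1 cleaves haem into biliverdin, carbon monoxide and iron, and is a classical target of the stress factor Nrf2 (Nfe2l2), which also drives genes of glutathione synthesis.

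The arrays were alike in scale, with medians of 0.926 to 0.951 on the deposited linear scale, and between 152 and 665 spots of an array were blank. Duplicate arrays of an animal correlated at 0.976 to 0.993 over probes. The 9 measured endothelial markers lay between percentiles 23.5 (Kdr) and 98.7 (Pecam1) of all probes. Only 2 of 13 listed smooth muscle markers, Smtn and Tpm1, had a tested probe, so the muscle of the artery wall was only thinly checked. The 9 measured adipocyte markers lay between percentiles 31.5 (Ucp1) and 98.8 (Fabp4). A pair of animals stood apart: vehicle animal 5 had a summed level of 74.4 over 12 hepatocyte markers, against 16.9 to 34.7 in the other vehicle animals, and estradiol benzoate animal 3 had 104 over 9 pancreatic acinar markers, against 0.481 to 5.04 in the 11 other animals. For Sod1, Sod2 and Hmox1, some differences from vehicle are also given without 1 of these animals.

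A probe was tested if 3 or more animals of every group gave a value on it. This held for 7 of the 8 probes, which were fitted with limma among all 10228 probes of this kind. In the comparison of estradiol benzoate with vehicle, 0 of the 7 passed at a Benjamini-Hochberg adjusted p under 0.05, as did 0% of all probes tested. At an unadjusted p under 0.05, 3 of the 7 were higher (Gsr probe 2 and Sod2 probes 2 and 3) and 0 lower, where 13.5% of all probes passed in either direction, 6.77% higher and 6.69% lower. On 2 of the 7, Gsr probe 2 and Sod2 probe 1, all estradiol benzoate animals lay above all vehicle animals, which was so for 3.53% of all probes. The median log2 difference was 0.23 for the 7 probes and -0.01 for all probes.

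For testosterone against vehicle, 0 of the 7 passed at an adjusted p under 0.05, where 0.0489% of all probes did. At an unadjusted p under 0.05, limma gave 1 higher (Gsr probe 2) and 1 lower (Hmox1), where 14% of all probes passed in either direction, 6.62% higher and 7.43% lower. Gsr probe 2 was the 1 probe of the 7 whose groups did not overlap, which held with testosterone higher for 2.45% of all probes. The median difference was 0.02 for the 7 probes and -0.01 for all probes. Both hormones were set against the same 4 vehicle animals, so these comparisons are not independent of each other. Between the hormones themselves, 0 of the 7 passed at an adjusted p under 0.05, where 0.0293% of all probes did. At an unadjusted p under 0.05, Sod2 probe 1 and Hmox1 were higher with estradiol benzoate, where limma gave 4.13% of all probes in either direction, 2.41% higher and 1.71% lower. Sod2 probes 1 and 3 did not overlap between the hormones, with estradiol benzoate higher, as was so for 1.88% of all probes. The F test for any difference among the 3 groups also passed 0 of the 7 (0.00978% of all probes), and its smallest adjusted p among the 7 was 0.153, for Gsr probe 2. By limma's F test 4 of the 7 had an unadjusted p under 0.05, where 11.9% of all probes did. The genes were chosen with earlier results of these data known, and the 7 probes stand for only 4 genes. The counts of member probes set beside the shares of all probes are therefore a description only.

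**Figure D1:**
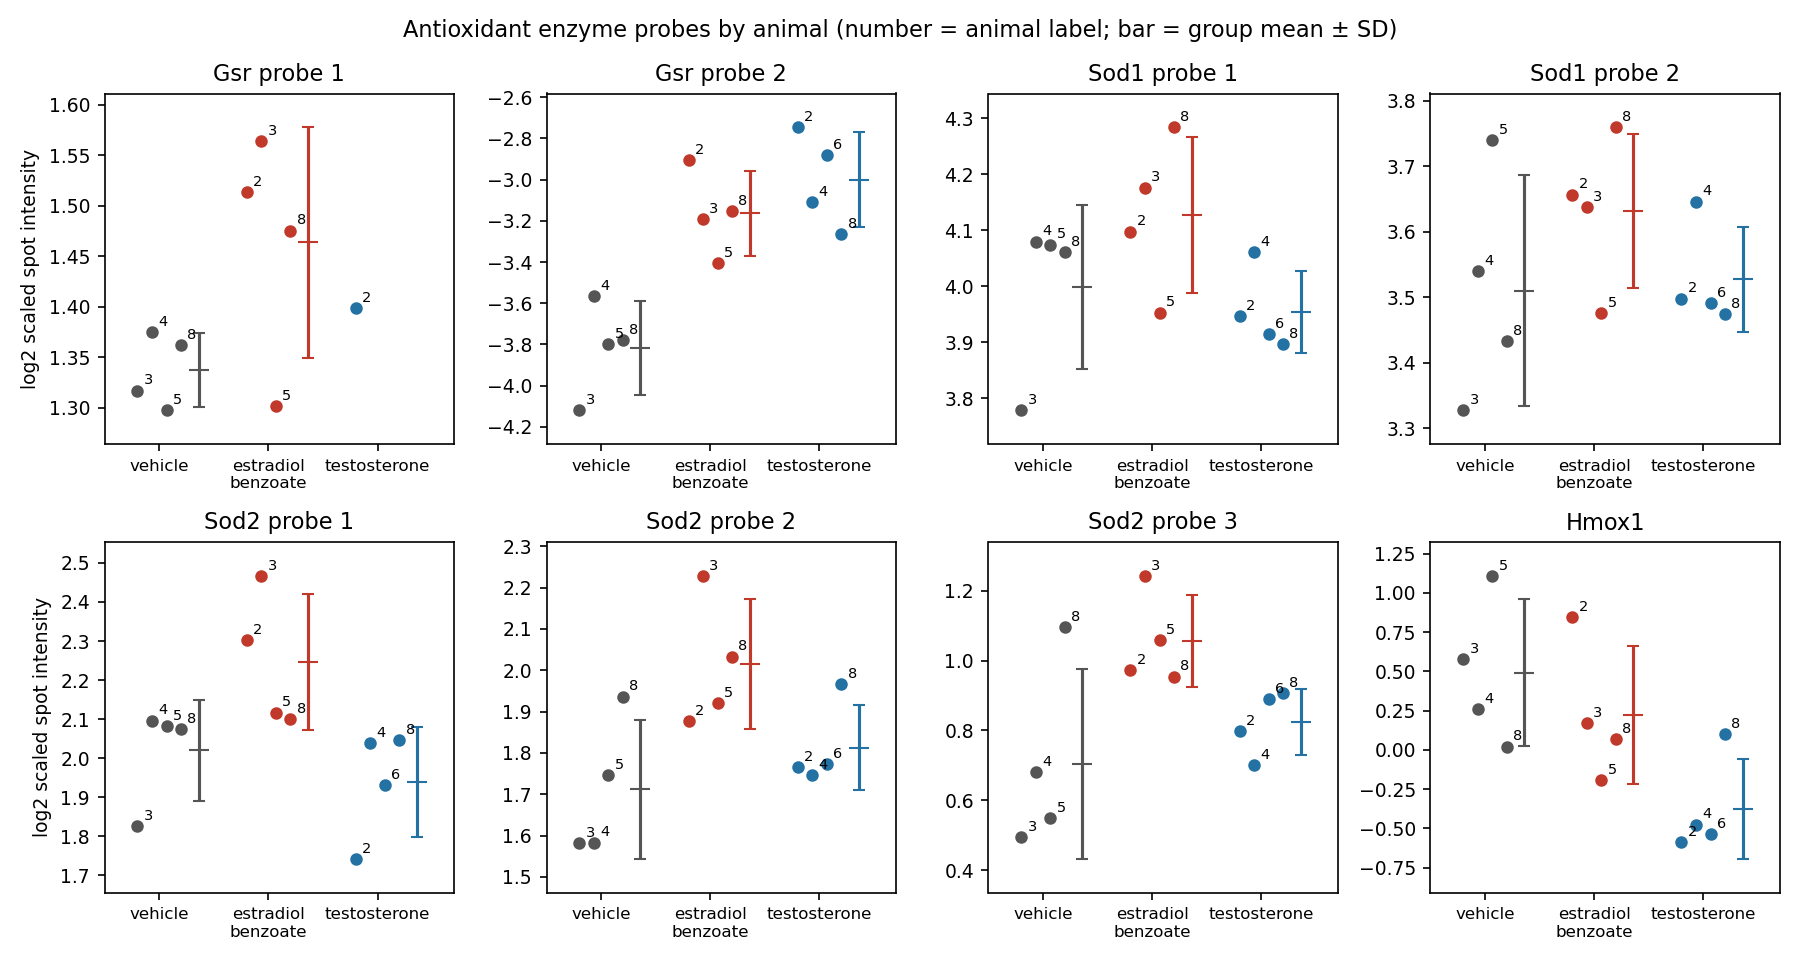
Log2 scaled spot intensity (vertical axis, a separate range in each panel) of the 8 probes in each animal, by group. Points are animals with their label number, and the bar beside each group is its mean with its SD; Gsr probe 2 is lower in the vehicle animals (-4.12 to -3.57) than in all animals given a hormone (-3.40 to -2.75), and Gsr probe 1 has a value in 1 testosterone animal only.

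**Figure D2:**
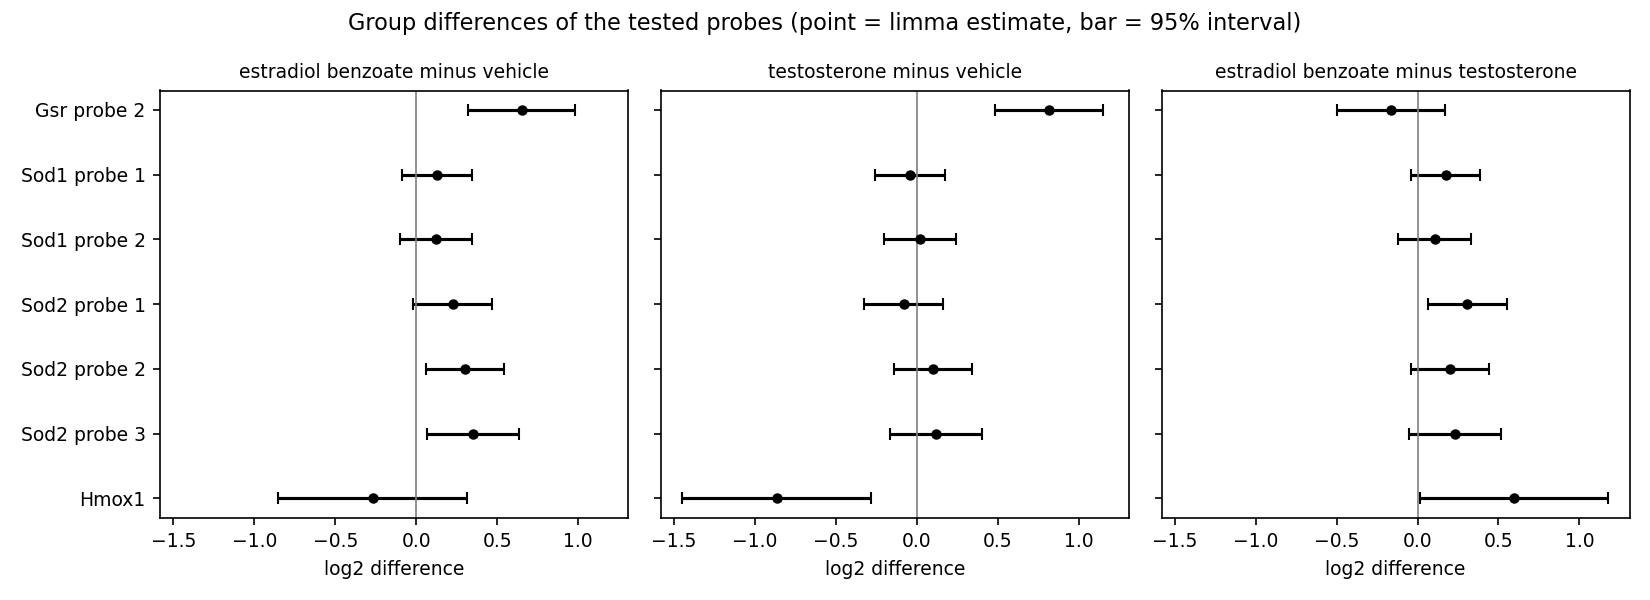
Log2 difference (horizontal axis) of the 7 tested probes in the 3 comparisons, with the limma estimate as a point and its 95% interval as a bar. The interval of Gsr probe 2 lies above 0 for both hormones (0.321 to 0.984 and 0.484 to 1.15), and that of Hmox1 lies below 0 for testosterone (-1.45 to -0.283), although none passed after adjustment.

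Sod2 stood higher with estradiol benzoate on each of its 3 probes, by 0.23 to 0.35 on the log2 scale, but no adjusted p was under 0.05. The start of the gene is shown because all 3 probes of Sod2 had the same sign in this comparison. Both probes of Sod1 and both of Gsr also shared a sign, so this does not single out Sod2. The 250 bases upstream of the start that RefSeq gives are at chr1:50050169-50050418 of build GRCr8, minus strand, printed in the direction of the gene. Of the 6 genes, 4 were matched in this promoter table, Sod2 among them. Capitals mark a GC box, GGGCGG, the letters that Sp1 factors bind, at 223 bases before the start, and, read on the other strand, the core TGACNNNGC of the antioxidant response element at 35 bases before it:
Sod2: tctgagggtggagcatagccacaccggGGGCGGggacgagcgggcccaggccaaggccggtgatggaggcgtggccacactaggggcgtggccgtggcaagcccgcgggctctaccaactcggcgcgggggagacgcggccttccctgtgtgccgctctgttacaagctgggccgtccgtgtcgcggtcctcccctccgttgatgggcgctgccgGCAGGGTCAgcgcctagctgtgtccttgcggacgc
The window was 71.6% G or C, where the median of 27457 promoters was 52%. Searched on both strands, the GC box was found in 32.4% of these promoters and the antioxidant response core in 10.2%. The full estrogen response element, searched as GGTCA and TGACC with 3 bases between them and found in 0.0219% of promoters, and the half-site AGGTCA, found in 13.7%, had no match in the window of Sod2. A match describes letters in this window and nothing about binding.

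On Sod2 probe 1 the log2 levels were 1.83, 2.10, 2.08 and 2.07 in vehicle animals 3, 4, 5 and 8. They were 2.30, 2.47, 2.12 and 2.10 in estradiol benzoate animals 2, 3, 5 and 8, and 1.74, 2.04, 1.93 and 2.05 in testosterone animals 2, 4, 6 and 8. All 4 estradiol benzoate animals lay above every other animal, though animal 8 only just above vehicle animal 4. The mean was 2.25 ± 0.17 (SD, n = 4) with estradiol benzoate, 2.02 ± 0.13 with vehicle and 1.94 ± 0.14 with testosterone. Against vehicle the difference was 0.23 (SE 0.111), a 1.17-fold level, with a limma p of 0.0653 and an adjusted p of 0.391. It was 0.33 on the AA arrays alone and 0.13 on the AB arrays alone. On the AB arrays vehicle animals 5 and 8 read 2.30 and 2.12, among the estradiol benzoate animals (2.11 to 2.45). The AA array of vehicle animal 5 read 1.87. Against testosterone the difference of estradiol benzoate was 0.31 (SE 0.111), with a limma p of 0.0179 and an adjusted p of 0.999. In bulk tissue such as this, more RNA per cell and more cells of a type that carries it cannot be told apart.

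Sod2 probe 2 read 1.58, 1.58, 1.75 and 1.94 in vehicle animals 3, 4, 5 and 8, and 1.88, 2.23, 1.92 and 2.03 in estradiol benzoate animals 2, 3, 5 and 8. The groups overlapped through vehicle animal 8. The difference was 0.30 (SE 0.109, 95% interval 0.0625 to 0.542), with a limma p of 0.0179 and an adjusted p of 0.304. Testosterone animals 2, 4, 6 and 8 read 1.77, 1.75, 1.77 and 1.97, which is 0.10 above vehicle (adjusted p by limma 0.698) and 0.20 below estradiol benzoate (adjusted p 0.999).

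Sod2 probe 3, made against an expressed sequence tag, read 0.49, 0.68, 0.55 and 1.10 in vehicle animals 3, 4, 5 and 8 and 0.97, 1.24, 1.06 and 0.95 in estradiol benzoate animals 2, 3, 5 and 8. Vehicle animal 8 again lay among the estradiol benzoate animals, above 3 of the 4. The difference was 0.35 (SE 0.13, 95% interval 0.0678 to 0.635), a 1.28-fold level, with a limma p of 0.0195 and an adjusted p of 0.306. Testosterone animals 2, 4, 6 and 8 read 0.80, 0.70, 0.89 and 0.91, all below every estradiol benzoate animal, and the difference between the hormones was 0.23 (adjusted p by limma 0.999).

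The Sod2 probes share a target and are not replicates of it. Across the 12 animals, probes 2 and 3 correlated at 0.872, probes 1 and 2 at 0.665 and probes 1 and 3 at 0.615, and after group means were removed at 0.756, 0.499 and 0.417. Estradiol benzoate animal 3, the one with the high acinar sum, had the highest level of all 12 animals on each of the 3. Without it the differences from vehicle were 0.15, 0.23 and 0.29 for probes 1, 2 and 3. The sign of testosterone minus vehicle differed between the probes, at -0.08 for probe 1 and 0.10 and 0.12 for the others, with each 95% interval across 0.

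Sod1 was read by a pair of probes, and neither had an unadjusted limma p under 0.05 in any comparison. Probe 1 read 3.78, 4.08, 4.07 and 4.06 in vehicle animals 3, 4, 5 and 8, 4.10, 4.18, 3.95 and 4.28 in estradiol benzoate animals 2, 3, 5 and 8, and 3.95, 4.06, 3.91 and 3.90 in testosterone animals 2, 4, 6 and 8. Probe 2 read 3.33, 3.54, 3.74 and 3.43 with vehicle, 3.66, 3.64, 3.48 and 3.76 with estradiol benzoate and 3.50, 3.65, 3.49 and 3.47 with testosterone, in the same order of animals. The groups overlapped on both probes in all 3 comparisons. Estradiol benzoate differed from vehicle by 0.13 (95% interval -0.0871 to 0.345) on probe 1 and 0.12 (-0.101 to 0.345) on probe 2, with adjusted p by limma of 0.565 and 0.601. Without vehicle animal 3, the lowest of its group on both, these differences were 0.06 and 0.06, and without vehicle animal 5 that of probe 2 was 0.20; on the AA arrays alone that of probe 2 was 0.05. Testosterone differed from vehicle by -0.04 (-0.26 to 0.172) and 0.02 (-0.206 to 0.24), so that a change of more than about 0.26 in either direction lay outside both intervals. Both probes are named for 1 transcript accession, and they correlated at 0.835 over the 12 animals. Ccs, the chaperone that loads copper into Sod1, differed by 0.09 with estradiol benzoate and 0.19 with testosterone (adjusted p by limma 0.81 and 0.577). Sod3, the extracellular dismutase, had no tested probe of its own.

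Gsr showed the smallest p among these probes, but on a dim probe. Gsr probe 2, named for the Gsr transcript, had a mean of 0.0997 on the deposited linear scale, where the array medians were near 1, and lay at percentile 16.5 of all probes. Its log2 levels were -4.12, -3.57, -3.80 and -3.78 in vehicle animals 3, 4, 5 and 8. They were -2.90, -3.19, -3.40 and -3.15 in estradiol benzoate animals 2, 3, 5 and 8, and -2.75, -3.11, -2.88 and -3.27 in testosterone animals 2, 4, 6 and 8. All 8 animals given a hormone lay above all 4 vehicle animals. The summed level of 8 measured lymphocyte markers was separated in the same way, at 0.675 to 0.84 with vehicle, 0.858 to 1.45 with estradiol benzoate and 0.881 to 1.27 with testosterone, with none at 0 in any group. All 8 markers had a difference above 0 with each hormone. Limma gave 6 and 4 of them higher at an unadjusted p under 0.05, where 6.77% and 6.62% of all probes were. These markers were dim as well, at percentiles 6.32 to 28.4 of all probes. The part of these cells in the level of Gsr was not tested.

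The difference of Gsr probe 2 from vehicle was 0.65 (SE 0.152) with estradiol benzoate, a 1.57-fold level (95% interval 1.25 to 1.98), with a limma p of 0.00112 and an adjusted p of 0.159. With testosterone it was 0.82 (SE 0.152), a 1.76-fold level (1.40 to 2.22), with a limma p of 0.00019, which ranked 14 among 10228 probes, and an adjusted p of 0.109. The exact two-sided permutation test over the 70 ways to divide 8 animals gave p = 0.0286 for each, the smallest it can give. The hormones differed from each other by -0.16 (95% interval -0.495 to 0.168, adjusted p by limma 0.999). For testosterone the call turned on the scaling and on how duplicate arrays were joined: the adjusted p was 0.0389 after quantile normalization (difference 0.78) and 0.0234 with all 24 arrays and the animal as a random block, over a range of 0.0234 to 0.323 across the alternatives. When the dimmest 25% of probes was left out, this probe was no longer among those tested.

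The duplicate arrays show the measurement error of this probe. The SD of a single array between duplicates was 0.203, and that of the duplicate means between animals within groups was 0.222. A mean of duplicates has a smaller error than a single array, so these SDs are not on the same footing. On the linear scale vehicle animal 8 read 0.0941 on array AA and 0.0564 on array AB, and vehicle animal 4 read 0.0931 and 0.0766. Vehicle arrays ranged from 0.0501 to 0.0941, estradiol benzoate arrays from 0.0886 to 0.143 and testosterone arrays from 0.101 to 0.157. Single arrays thus overlapped between vehicle and estradiol benzoate, and did not between vehicle and testosterone. The testosterone difference was 0.61 on the AA arrays alone and 1.02 on the AB arrays alone, and the estradiol benzoate difference 0.47 and 0.83.

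**Figure D3:**
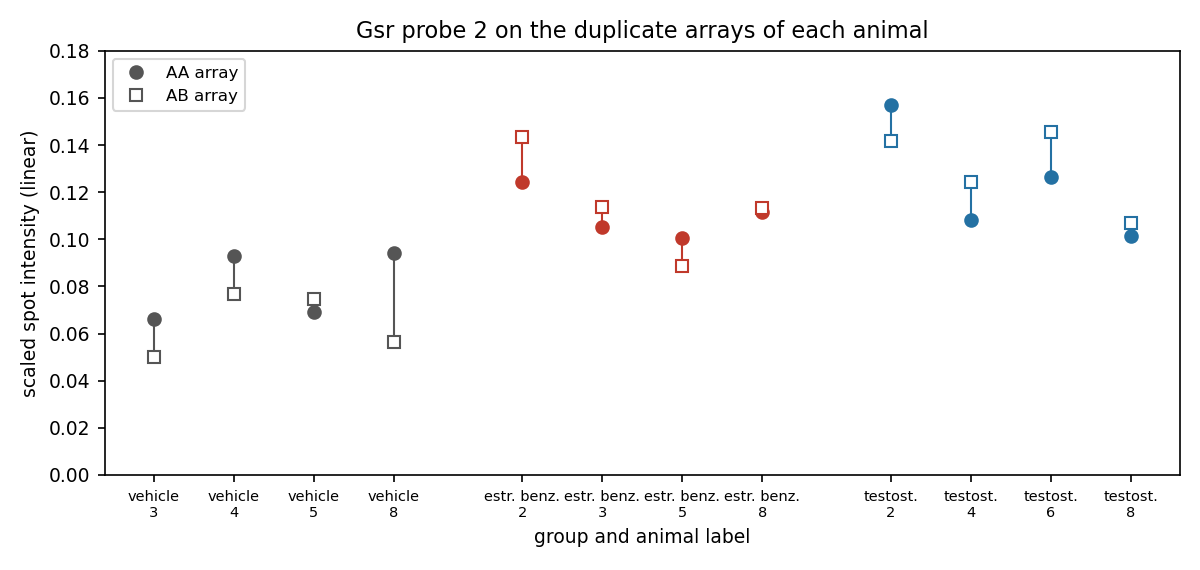
Linear scaled spot intensity of Gsr probe 2 (vertical axis) on the AA array (filled circle) and the AB array (open square) of each animal, joined by a line. The duplicates of vehicle animal 8 lie at 0.0941 and 0.0564, a wider gap than in any other animal, and all testosterone arrays lie above 0.101.

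The brighter Gsr probe, probe 1, is named for an expressed sequence tag (mean log2 level 1.40, percentile 74). It was blank on 10 of the 24 arrays, among them both arrays of testosterone animals 4, 6 and 8, and so was not tested in the fit of all groups. It read 1.32, 1.38, 1.30 and 1.36 in vehicle animals 3, 4, 5 and 8, and 1.51, 1.56, 1.30 and 1.48 in estradiol benzoate animals 2, 3, 5 and 8. Testosterone animal 2 read 1.40, just above the vehicle animals. The estradiol benzoate animals were higher in 3 of 4 cases and overlapped the vehicle animals through animal 5. The difference was 0.13, with an exact permutation p of 0.114. In a limma fit of these groups alone, added after the values were seen, its SE was 0.0866 and its adjusted p 0.525. Thus the 0.65 of the dim probe and the 0.13 of the brighter probe shared a sign but not a size. Across the 9 animals with both, the probes correlated at 0.654. Why spots of probe 1 were blank was not tested.

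Hmox1 was lower with testosterone in 3 of 4 animals. Its log2 levels were 0.58, 0.26, 1.11 and 0.02 in vehicle animals 3, 4, 5 and 8, and 0.84, 0.17, -0.19 and 0.07 in estradiol benzoate animals 2, 3, 5 and 8. Testosterone animals 2, 4, 6 and 8 read -0.59, -0.48, -0.54 and 0.10. Testosterone animals 2, 4 and 6 lay below all animals of the other groups, whereas testosterone animal 8 lay above vehicle animal 8 and so made the groups overlap. The value of vehicle animal 5, the highest of the 12, came from array AB alone.

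Testosterone differed from vehicle by -0.87 (SE 0.267, 95% interval -1.45 to -0.283), a 0.548-fold level, with a limma p of 0.00732 and an adjusted p of 0.243. The exact two-sided permutation p was 0.0571. Without vehicle animal 5 the difference was -0.66, and without testosterone animal 8 it was -1.02. With all 24 arrays and the animal as a random block it was -0.84 and passed, at an adjusted p of 0.0362, where the adjusted p ranged from 0.0362 to 0.586 across the alternatives. Estradiol benzoate differed from vehicle by -0.27 (SE 0.267, adjusted p by limma 0.667). This was -0.06 without vehicle animal 5, -0.48 without estradiol benzoate animal 2 and -0.01 on the AA arrays alone. From testosterone it differed by 0.60 (SE 0.267, limma p 0.0456, adjusted p 0.999), and by 0.39 without estradiol benzoate animal 2. Hmox1 varied more between animals of a group (SD 0.415 of animal means) than between duplicates (SD 0.0967 of a single array). The margin was wider than for Gsr probe 2.

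Macrophages, which clear old red cells, are rich in haem oxygenase 1, and 6 of 13 listed macrophage markers were measured. Their summed linear level was 31.0 to 45.4 with vehicle, 28.2 to 36.5 with estradiol benzoate and 23.0 to 34.5 with testosterone, and none was at 0 in any group. Vehicle animal 5 had the highest sum and testosterone animal 2 the lowest, as on Hmox1, and testosterone animal 8 had the highest of its group, 34.5. Estradiol benzoate animal 3 had the next highest sum after vehicle animal 5, 36.5, at an Hmox1 level of 0.17. Estradiol benzoate animal 2, next highest on Hmox1 at 0.84, had a sum of 33.7. At an unadjusted p under 0.05 by limma, 2 of the 6 markers were lower with testosterone, where 7.43% of all probes were. Another 2 of the 6 had a difference above 0 with testosterone. The 12 hepatocyte markers summed to 16.9 to 74.4 with vehicle, 15.9 to 33.1 with estradiol benzoate and 12.1 to 32.5 with testosterone. Pck1 was by far the brightest of them, with mean log2 levels of 4.55, 4.20 and 4.15 in these groups. The highest group mean of any other was 0.76, for Gc with vehicle, so Pck1 weighs heavily in these linear sums. Vehicle animal 5 had the highest sum, and 7 of the 12 markers were lower with testosterone at an unadjusted p under 0.05 by limma. For all probes that share was 7.43%. The 3 erythroid markers measured summed to 15.8 to 19.8, 16.7 to 21.0 and 15.4 to 20.6. The part of these cells in the level of Hmox1 was not tested.

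**Figure D4:**
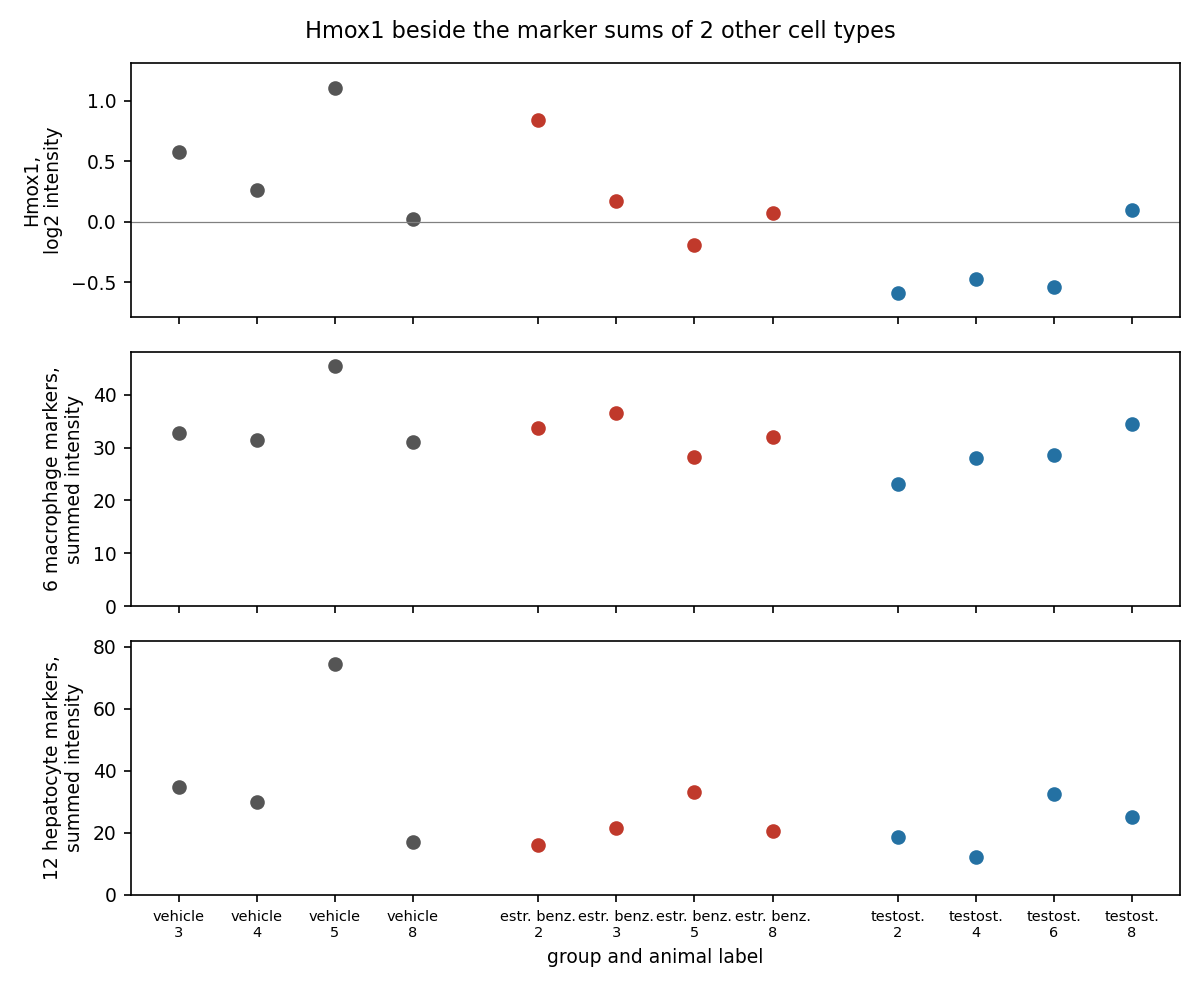
Log2 intensity of Hmox1 (top) and the summed linear intensity of 6 macrophage markers (middle) and 12 hepatocyte markers (bottom) in each of the 12 animals. Vehicle animal 5 is highest in all 3 panels (Hmox1 1.11, sums 45.4 and 74.4). Testosterone animal 8 is the highest of its group for Hmox1 (0.10) and the macrophage sum (34.5). Estradiol benzoate animal 3 has the next highest macrophage sum after vehicle animal 5 (36.5), at an Hmox1 level of 0.17.

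Of 148 other genes listed around these enzymes, 74 had a tested probe with a single symbol, and none passed at an adjusted p under 0.05 in any comparison. At an unadjusted p under 0.05, 13 of the 74 (17.6%) differed with estradiol benzoate, 7 higher and 6 lower, and 12 (16.2%) with testosterone, 7 higher and 5 lower, near the 13.5% and 14% of all probes. Between the hormones it was 1 (1.35%), against 4.13% of all probes. The values below are log2 differences from vehicle, estradiol benzoate first and testosterone second.

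**Figure D5:**
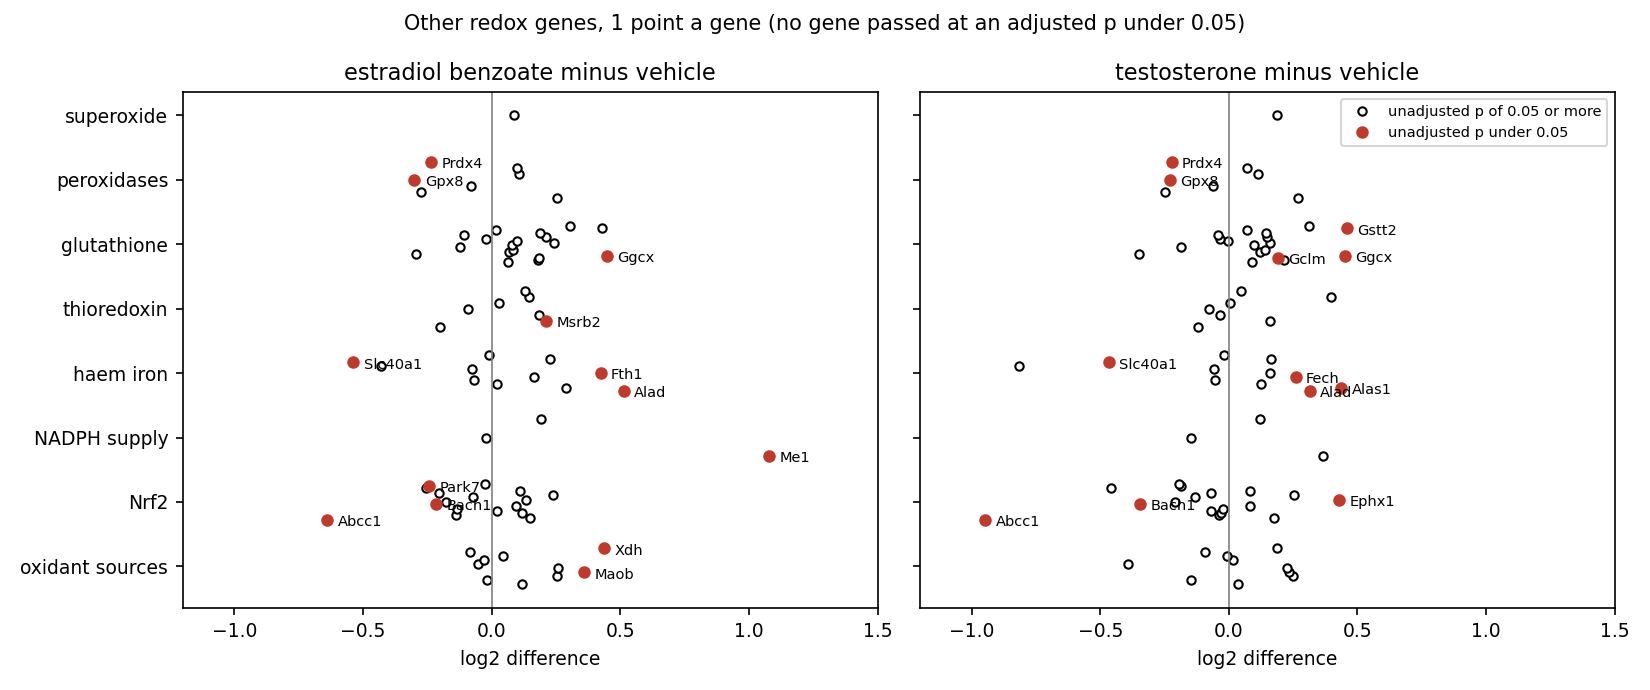
Log2 difference from vehicle (horizontal axis) of the 74 other measured genes, 1 point a gene, in 8 lists, for estradiol benzoate (left) and testosterone (right). Filled points have an unadjusted limma p under 0.05 (13 on the left, 12 on the right); none passed after adjustment, and Me1 (1.08) and Abcc1 (-0.95) lie farthest from 0 on the left and right.

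Of the genes that make glutathione, which Gsr recycles, Gclm, Gclc and Gss were measured, and none passed with either hormone at an adjusted p under 0.05. Gclm, the modifier subunit of the rate-limiting ligase, read 1.13, 1.08, 1.05 and 1.18 in the vehicle animals and lay above 1.20 in all animals given a hormone. Of all probes, 3.53% were separated with estradiol benzoate higher and 2.45% with testosterone higher. Gclm differed by 0.19 and 0.19 (adjusted p by limma 0.376 and 0.355), and by 0.26 and 0.42 on its second, dimmer probe. The catalytic subunit Gclc differed by 0.18 and 0.22 (adjusted p by limma 0.55 and 0.488), and by 0.22 and 0.11 on its second, dimmer probe. Glutathione synthetase, Gss, differed by 0.24 and 0.16 (adjusted p by limma 0.37 and 0.534). Gstt2, a glutathione transferase, differed by 0.43 and 0.46. Over the list of 18 measured genes, limma gave 1 higher and 0 lower with estradiol benzoate at an unadjusted p under 0.05, and 3 higher and 0 lower with testosterone, where 13.5% and 14% of all probes passed in either direction. Ggcx (0.45 and 0.45) was among those higher with each hormone, but it carboxylates clotting proteins with vitamin K, does not act on glutathione and was listed in error. Without it the counts were 0 of 17 with estradiol benzoate and 2 of 17 with testosterone, Gclm and Gstt2, and the median difference was 0.08 and 0.12.

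At an unadjusted p under 0.05 by limma, 6.69% of all probes were lower with estradiol benzoate and 7.43% with testosterone. Among the peroxidases, 2 of 7 measured were lower with each hormone at this threshold and 0 higher. These were Gpx8 (-0.30 and -0.23) and Prdx4 (-0.24 and -0.22), which both act in the endoplasmic reticulum. Their adjusted p by limma were 0.285 and 0.306 with estradiol benzoate and 0.355 and 0.318 with testosterone. Gpx3, the secreted plasma enzyme, differed by -0.28 and -0.25 (adjusted p 0.462 and 0.521), and the cytosolic peroxiredoxin Prdx1 by 0.11 and 0.11. Gpx4, which reduces lipid peroxides, differed by -0.08 and -0.06 on a dim probe (percentile 17.9). In the thioredoxin list 1 of 7 was higher with estradiol benzoate at an unadjusted p under 0.05, the methionine sulfoxide reductase Msrb2 (0.21 and 0.16). Of all probes, 6.77% were higher with estradiol benzoate at this threshold. The thioredoxin reductase Txnrd1 differed by 0.13 and 0.05, also on a dim probe (percentile 15.9).

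Haem and iron genes, which supply or use the substrate and products of Hmox1, held the smallest unadjusted p of the lists, that of Slc40a1 with estradiol benzoate. Ferroportin, Slc40a1, which exports iron from cells, read 2.53, 2.38, 2.53 and 2.46 in vehicle animals 3, 4, 5 and 8. It read 2.02, 1.78, 1.72 and 2.22 with estradiol benzoate and 2.05, 1.90, 1.91 and 2.16 with testosterone, so all 8 lay below the vehicle animals. The share of all probes separated in this direction was not counted, and Slc40a1 was named for its small p. The differences were -0.54 and -0.47 (SE 0.115, limma p 0.000584 and 0.00168, adjusted p 0.129 and 0.187), and -0.33 and -0.34 on a second probe. Ferritin heavy chain, Fth1, which stores iron, lay higher in all estradiol benzoate animals than in all others of vehicle or testosterone. Its differences were 0.42 and 0.16 (adjusted p 0.203 and 0.565). Estradiol benzoate animals lay above all vehicle animals for 3.53% of all probes, and above all testosterone animals for 1.88%. Alad, an enzyme of haem synthesis, differed by 0.51 and 0.31 (adjusted p 0.191 for estradiol benzoate), and at an unadjusted p under 0.05 limma also gave Alas1 (0.44) and Fech (0.26), its first and last enzymes, higher with testosterone. The second haem oxygenase, Hmox2, differed by -0.08 and -0.06, and biliverdin reductase A, Blvra, by 0.02 and 0.13.

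Bach1, which represses Hmox1 and binds haem, read 2.90, 3.03, 3.14 and 2.91 in vehicle animals 3, 4, 5 and 8, above all other animals. It read 2.86, 2.71, 2.69 and 2.85 with estradiol benzoate and 2.59, 2.64, 2.60 and 2.76 with testosterone. How many of all probes were separated in this direction was not counted, and Bach1 too was named for its small p. The differences were -0.22 and -0.34 (SE 0.0839, limma p 0.0246 and 0.00158, adjusted p 0.311 and 0.182). Nfe2l2 itself differed by -0.21 and -0.07 (adjusted p by limma 0.465 and 0.83) and Nqo1, its classical target, by 0.11 and 0.08. The exporter Abcc1 had negative differences on both its probes (-0.64 and -0.95, adjusted p 0.306 and 0.201; second probe -0.58 and -0.80), and its vehicle animal 5 lay at -0.78, among the animals given a hormone. Ephx1, an epoxide hydrolase, differed by 0.13 and 0.43, and by 0.51 and 0.93 on its second, dimmer probe. Park7 differed by -0.24 and -0.19. Over the 17 measured genes listed around Nrf2, limma gave 0 higher and 3 lower with estradiol benzoate at an unadjusted p under 0.05. With testosterone it gave 1 higher and 2 lower. The list is not of targets alone, and the repressor Bach1 was among the lower genes with each hormone. Of all probes, 13.5% and 14% passed in either direction. Keap1, Pgd, Prdx6 and Blvrb had no tested probe with a single symbol.

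Malic enzyme, Me1, which supplies NADPH and is abundant in fat, read 2.92, 3.78, 2.71 and 3.73 in vehicle animals 3, 4, 5 and 8 and 4.70, 4.48, 3.70 and 4.57 in estradiol benzoate animals 2, 3, 5 and 8. Its differences were 1.08 and 0.37 (SE 0.368, adjusted p by limma 0.284 and 0.672), and 1.23 and 0.45 on a second, dimmer probe. The sum of 9 adipocyte markers was 62.4 to 76.8 with vehicle, 73.0 to 81.5 with estradiol benzoate and 69.3 to 91.1 with testosterone, and 8 of the 9 markers had a difference above 0 with each hormone. By limma, 4 of the 9 were higher and 0 lower with each at an unadjusted p under 0.05. Of all probes, 6.77% were higher with estradiol benzoate and 6.62% with testosterone at this threshold. The part of fat in the level of Me1 was not tested. Of 10 measured genes listed around the making of oxidants, 2 were higher with estradiol benzoate at an unadjusted p under 0.05 by limma. These were xanthine dehydrogenase Xdh (0.44 and 0.19) and monoamine oxidase Maob (0.36 and 0.23). With testosterone 0 were higher at this threshold.

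For the brightest probe of each gene, the 3 genes most alike over the 12 animals were taken from 6248 by Pearson correlation. For the tested Gsr probe they were Tmem86a, which hydrolyses lysoplasmalogens (0.957), the kinase gene Dclk1 (0.932) and Cdkn2aipnl (0.929). Tmem86a differed from vehicle by 0.62 and 0.89 and passed for testosterone (adjusted p by limma 0.0317), on a probe of its own. For Sod1 they were Ctf1 (0.889), Vezf1 (0.889) and Rack1 (0.821). For Sod2 probe 1 they were Fcnb (0.902), a secreted lectin of granulocytes and monocytes, Prkar2a (0.851) and Tmed2 (0.828). For Hmox1 they were C1qc (0.927), a complement subunit that macrophages make, Psme1 (0.915) and Kmo (0.891), and C1qc differed by -0.18 and -0.40 (adjusted p by limma 0.654 and 0.344). These correlations rank 6248 genes, all read on the same arrays of 12 animals and sharing their groups, and serve as a description only. With group means removed, C1qc kept 0.906 with Hmox1 and Tmem86a 0.826 with Gsr probe 2.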

How the data were processed

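The deposited values are linear scaled spot intensity of 24 CodeLink arrays, and the array medians lay between 0.926 and 0.951. Per the labels' protocols, 1 cRNA of each animal went on both of its arrays. How background was corrected, how arrays were scaled and which spots were filtered is not given in the sources used here. Spots left blank and values at or below 0 (327 in all) were treated as missing, log2 was taken with no pseudocount, and the 2 arrays of an animal were averaged. With limma 3.58.1 (R 4.3.3), 1 mean per group was fitted over all 12 animals (lmFit, eBayes, two-sided) for the 10228 probes that 3 or more animals of every group had a value for, with Benjamini-Hochberg adjustment over these. The probe annotation, which is GEO's, names 1 gene for 7294 probes, more than 1 for 88 and none for 3017. The fit was tested on simulated data.

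The members and lists were chosen with earlier results of these data known. Named were all member probes, from each list the up to 3 genes with the smallest p in each comparison beside a fixed set (of which the text gives those it describes), and the 3 genes most like each member; a gene with several probes was taken by its brightest. One listed gene is not reported here. Animal numbers were not taken as pairs: same-numbered animals of different groups had correlations of deviations between -0.115 and 0.297. Alternatives covered the scaling, the duplicate arrays, filters, the variance model, the animal number as a block and each animal left out. The number of animals limits the precision.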

Additional observations from a re-analysis of the deposited data

Results flagged for a closer look

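Among 23 groups of 4 animals, 1 for each probe and treatment with 4 values, 5 held an animal set apart from the other 3 by a gap that exceeds the 95% Dixon value for its share of the group's range; chance alone sets apart about 1 group in 20. On Sod1 probe 1, vehicle animal 3 was low at 3.78, where the nearest other animal read 4.06 (ratio 0.94). On Sod2 probe 1 the same animal was low at 1.83, with the nearest at 2.07 (ratio 0.919). On Sod1 probe 2, testosterone animal 4 was high at 3.65, with the nearest at 3.50 (ratio 0.858). Testosterone animal 8 was high on Sod2 probe 2, at 1.97 with the nearest at 1.77 (ratio 0.874), and on Hmox1, at 0.099 with the nearest at -0.476 (ratio 0.839).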

How the results depend on the processing

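Of 21 comparisons of member probes, 17 kept their direction in each of 24 alternative settings in which the probe was tested. With testosterone against vehicle, 1 member probe (Gsr probe 2) passed after quantile normalization and 2 (with Hmox1) with all 24 arrays and the animal as a random block, where the F test passed 1. That setting also raised the calls among all probes, from 0 to 226 for estradiol benzoate against vehicle, from 5 to 151 for testosterone against vehicle and from 3 to 40 between the hormones; the cause was not tested. For testosterone minus vehicle, Sod1 probe 1 turned to 0.0066 (quantile normalization) and 0.011 (AB arrays alone), Sod1 probe 2 to -0.13 and Sod2 probe 1 to 0.089 (AA arrays alone); the cause was not tested. Sod1 probe 2 ranged from -0.044 to 0.094 as 1 animal at a time was left out. Animal numbers as a replicate block passed 0 member probes in each comparison, turned Gsr probe 2 between the hormones to 0.035, and lowered the calls for testosterone among all probes from 5 to 0; 2 of 6 animals correlated best with their own number. Leaving out 1 animal moved these calls between 0 and 45, the highest without vehicle animal 5, and passed 0 member probes. Leaving out vehicle animal 5 and estradiol benzoate animal 3 together, chosen after seeing the data, gave 29. Gsr probe 2 was dim, and signal over background was not measured for it.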
